A study of Homo sapiens with 9 samples.

Results

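In 293T cells, 37 ubiquitin and proteasome genes were listed with editing sites of GPATCH8 or SUGP1 fusions, out of 1348 protein-coding genes with a listed transcript. Among the 37, TRIM8 was listed for a promoter site alone, and PSMC3IP matches these families by symbol alone. Members were the protein-coding entries whose symbol belongs to the USP, UBE2, UBE3, UBE4, CUL, FBX, RNF, TRIM, PSM (A to G), OTU, HERC, HUWE, UBR or KLHL families. The GPATCH8-ADAR list held 15 such genes and the ADAR-SUGP1 list 30. The 293T line derives from human embryonic kidney and is easily transfected, and its SF3B1 was labelled wild type. The assay, TRIBE-seq, joins an RNA-binding protein to the catalytic part of a hyperactive fly adenosine deaminase (ADAR), so that adenosines close to a contact site are edited and read as guanosine. GPATCH8-ADAR was made in run 1 (2 libraries) and ADAR-SUGP1 in run 2 (2 libraries); each run had its own non-targeting control fusion of ADAR with MCP, a phage coat protein (2 libraries per run), and run 2 also had untransfected cells (1 library). Transfected cells were sorted for GFP 24 h after receiving the fusion from a plasmid, so the proteins were expressed on top of the cells' own copies.

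GPATCH8 and SUGP1 are nuclear G-patch proteins linked to branchpoint choice in splicing. The gene families described here tag proteins with ubiquitin, remove it, or degrade the tagged proteins. An E2 enzyme carries activated ubiquitin, and an E3 ligase brings the E2 to the substrate. RING, TRIM, HECT-type and cullin ligases are the main kinds of E3. Cullins are scaffolds that take their substrates through exchangeable adaptors, of which F-box proteins serve CUL1 and BTB-Kelch (KLHL) proteins serve CUL3. Deubiquitinases of the USP and OTU families reverse the reaction, and the proteasome unfolds and cleaves the substrate.

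The deposited lists give 1 count of editing sites per transcript and region, taken from both replicate libraries together. Neither a spread between libraries nor a level in the controls can be given, and no p-value is given for any comparison below. Read depth, editing level and expression behind a site are not known from the tables, so absence from a list does not show that a transcript was not contacted. Intervals are exact binomial (Clopper-Pearson) 95% intervals, which cover counting error only, since sites of 1 gene are not independent. The fusions were sequenced in separate runs, and effects of fusion and run cannot be told apart.

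The 15 member genes with GPATCH8-ADAR were 3.21% of the 467 protein-coding genes of these families (interval 1.81 to 5.24), where 2.48% of all RefSeq protein-coding genes were listed. The 30 with ADAR-SUGP1 were 6.42% (4.38 to 9.04), where 4.96% of all protein-coding genes were listed. The listed share of these families was thus close to that of protein-coding genes at large, which lies within the interval for each fusion. GPATCH8-ADAR alone had 7 members and ADAR-SUGP1 alone had 22. Both lists held 8, which are FBXL12, KLHL42, PSMD4, PSMD7, RNF149, TRIM27, UBE2O and UBE4A. These were 53.3% of the GPATCH8-ADAR members (26.6 to 78.7), against 29.1% of all protein-coding genes on that list. They were 26.7% of the ADAR-SUGP1 members (12.3 to 45.9), against 14.6% of all protein-coding genes on that list. The lower bound for the GPATCH8-ADAR members lies under the share of all genes, and so does that for the ADAR-SUGP1 members.

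**Figure D1:**
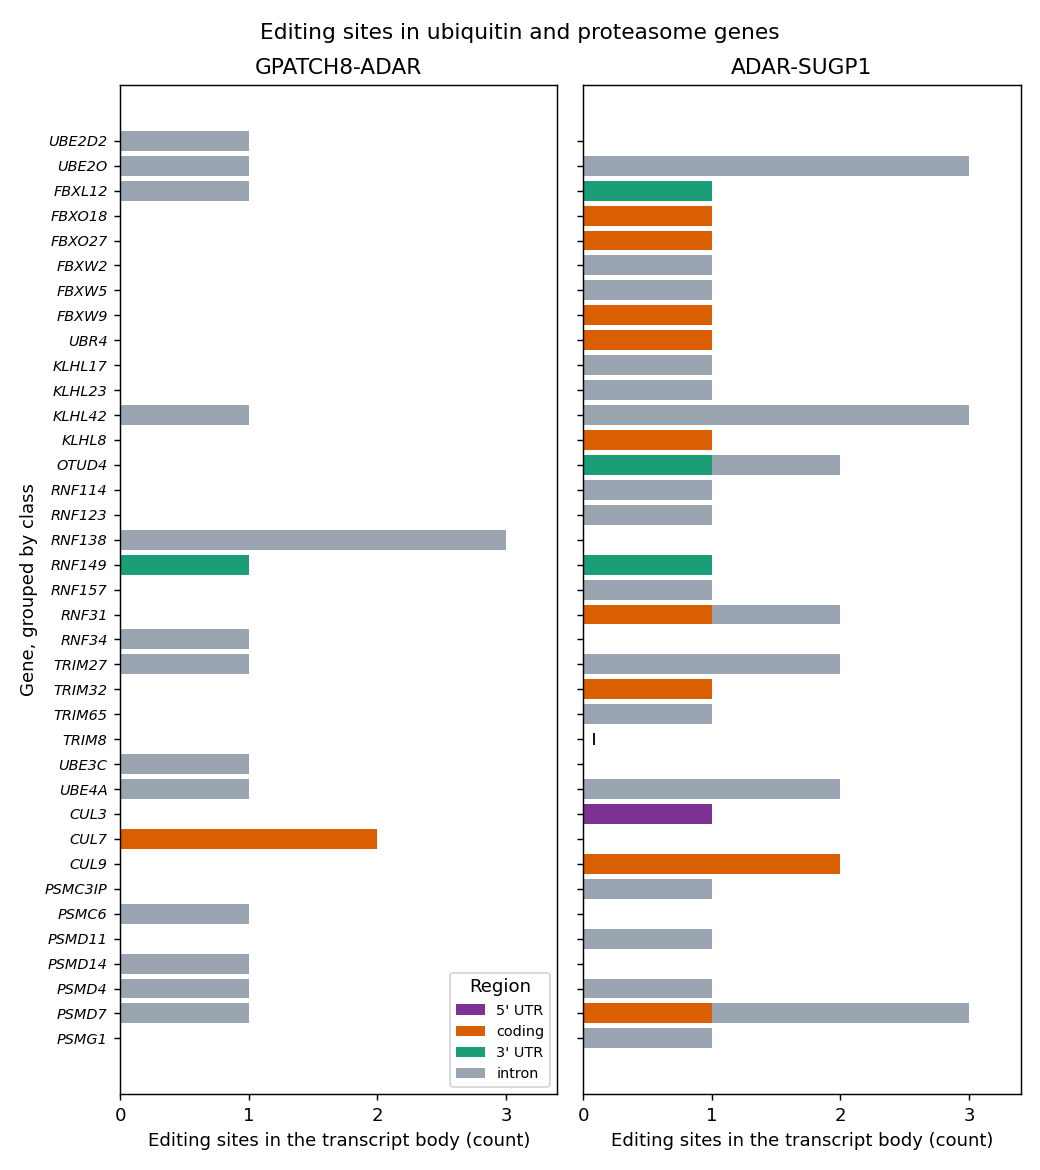
Editing sites in the transcript body (horizontal axis, count) of each of the 37 genes (vertical axis, grouped by class), with GPATCH8-ADAR in the left panel and ADAR-SUGP1 in the right panel; colours mark the region, an empty row means that the gene was not on that list, and the tick at TRIM8 marks a listed gene with 0 body sites. No gene had more than 3 sites; RNF138 had 3 in the left panel, and KLHL42, PSMD7 and UBE2O had 3 each in the right panel.

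Among E2 enzymes, UBE2D2, a conjugating enzyme that serves many RING ligases, had 1 intronic site with GPATCH8-ADAR (ENST00000511725.1) and was not listed with ADAR-SUGP1. UBE2O, a large enzyme that combines E2 and E3 activity, had 1 intronic site with GPATCH8-ADAR and 3 with ADAR-SUGP1, all counted on ENST00000319380.7. Of 36 UBE2 genes, 2 were thus on the GPATCH8-ADAR list (5.56%) and 1 on the ADAR-SUGP1 list (2.78%), where 2.48% and 4.96% of all protein-coding genes were listed. UBE4A, a U-box ligase that extends ubiquitin chains, had 1 intronic site with GPATCH8-ADAR and 2 with ADAR-SUGP1 on ENST00000252108.3. UBE3C, a HECT ligase that works at the proteasome, had 1 intronic site with GPATCH8-ADAR on ENST00000348165.5. Of 6 UBE3 and UBE4 genes, 2 were thus on the GPATCH8-ADAR list (33.3%, 4.33 to 77.7) and 1 on the ADAR-SUGP1 list (16.7%, 0.421 to 64.1). These are to be read beside the same 2.48% and 4.96%, and the difference was not tested. Of the 13 HERC, HUWE and UBR genes, which include very large ligases, UBR4 was the one listed (7.69%, with ADAR-SUGP1). It is a ligase of the N-degron pathway, and it had 1 coding site with ADAR-SUGP1 on ENST00000375217.2.

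Cullin genes on the GPATCH8-ADAR list numbered 1 and those on the ADAR-SUGP1 list 2, of 8. These were 12.5% (0.316 to 52.7) and 25.0% (3.19 to 65.1), against 2.48% and 4.96% of all protein-coding genes. The 3 listed cullins had exonic sites and no intronic ones. Of all protein-coding genes listed, 74.3% had an intronic site with GPATCH8-ADAR and 63.1% with ADAR-SUGP1. With 3 genes over 2 lists, a trait of cullins cannot be read from this, and none was tested. CUL7, the scaffold altered in the growth disorder 3M syndrome, had 2 coding sites with GPATCH8-ADAR on ENST00000265348.3. CUL9, its close relative, had 2 coding sites with ADAR-SUGP1 on ENST00000252050.4. CUL3, the scaffold that KLHL adaptors bind, had 1 site in its 5′ UTR with ADAR-SUGP1 on ENST00000344951.4, the single 5′ UTR site among the members. Each of these 3 cullins was on 1 list, and CUL7 and CUL9 were alone among members in having 2 coding sites.

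F-box genes on the GPATCH8-ADAR list numbered 1 and those on the ADAR-SUGP1 list 6, of 64 (1.56% and 9.38%), where 2.48% and 4.96% of all protein-coding genes were listed. FBXL12, an F-box protein with leucine-rich repeats, was on both lists with different regions. With GPATCH8-ADAR it had 1 intronic site on ENST00000586651.1, and with ADAR-SUGP1 it had 1 site in the 3′ UTR of ENST00000589438.1, while ENST00000586651.1 was listed there with 0 in every region. A stop-codon site was counted on FBXL12 transcript ENST00000590808.1 with both fusions, and this transcript had no site in its body. Coding sites with ADAR-SUGP1 were counted once each in FBXO18 (current symbol FBH1, a DNA helicase with an F-box), in FBXO27, which recognises glycoproteins, and in FBXW9. The WD40-repeat adaptors FBXW2 and FBXW5 had 1 intronic site each with ADAR-SUGP1. FBXW5 and FBXW9 each had a further transcript listed with 0 in every region.

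KLHL genes on the GPATCH8-ADAR list numbered 1 and those on the ADAR-SUGP1 list 4, of 37 (2.70% and 10.8%, against the same 2.48% and 4.96%). KLHL42, an adaptor that directs CUL3 to the microtubule-severing enzyme katanin, had 1 intronic site with GPATCH8-ADAR and 3 with ADAR-SUGP1 on ENST00000381271.2. KLHL17 and KLHL23 had 1 intronic site each with ADAR-SUGP1, and KLHL8 had 1 coding site. KLHL23 shares its locus with the readthrough gene PHOSPHO2-KLHL23, so that its count cannot be assigned to one of them with certainty.

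RNF genes on the GPATCH8-ADAR list numbered 3 and those on the ADAR-SUGP1 list 5, of 86 (3.49% and 5.81%, against 2.48% and 4.96% of all protein-coding genes). RNF138, a ligase that acts in DNA double-strand break repair, had 3 intronic sites with GPATCH8-ADAR on ENST00000261593.3 and was not listed with ADAR-SUGP1. It held the most sites of any member with GPATCH8-ADAR. RNF34, a ligase for caspases, had 1 intronic site with GPATCH8-ADAR. RNF149, a membrane-bound ligase, had the same record with both fusions, namely 1 site in the 3′ UTR of ENST00000424632.1 and a further transcript, ENST00000485752.1, listed with 0 in every region. RNF31 (HOIP), the catalytic subunit of the complex that makes linear ubiquitin chains, had 1 coding and 1 intronic site with ADAR-SUGP1 on ENST00000559275.1 and a stop-codon site on ENST00000491351.1. RNF114, RNF157 and RNF123, the last a ligase for the cell-cycle inhibitor p27, had 1 intronic site each with ADAR-SUGP1.

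TRIM genes on the GPATCH8-ADAR list numbered 1 and those on the ADAR-SUGP1 list 4, of 77 (1.30% and 5.19%, against 2.48% and 4.96%). TRIM27 had 1 intronic site with GPATCH8-ADAR on ENST00000481474.1 and 2 with ADAR-SUGP1 on another transcript, ENST00000414543.1. TRIM32, altered in a limb-girdle muscular dystrophy, had 1 coding site with ADAR-SUGP1 on ENST00000450136.1, which also had a stop-codon site. TRIM65 had 1 intronic site with ADAR-SUGP1. TRIM8 was listed with ADAR-SUGP1 for 1 promoter site and had none in the transcript body. It was the one member with a promoter site and the one without a body site. No member had a promoter site with GPATCH8-ADAR, and none lacked a body site there. Of all protein-coding genes, 0.602% had a promoter site with GPATCH8-ADAR and 0.603% with ADAR-SUGP1, while 2.21% and 3.52% had no body site.

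Among the USP and OTU deubiquitinases, 1 gene was listed, and deubiquitinases outside these families are described below. None of the 78 USP genes was listed with GPATCH8-ADAR (0 to 4.62% by the interval) or with ADAR-SUGP1 (the same interval), where 2.48% and 4.96% of all protein-coding genes were listed. Of these 78 symbols, 25 are copies of USP17, a repeated gene, and the interval would be wider without them. Whether USP genes were listed less often than other genes was not tested. Of the 12 OTU genes, OTUD4 was the one listed (8.33%, with ADAR-SUGP1). It had 1 intronic site on ENST00000455611.2 and 1 site in the 3′ UTR of ENST00000509620.2 with ADAR-SUGP1, the latter transcript also having a stop-codon site.

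Proteasome genes on the GPATCH8-ADAR list numbered 4 and those on the ADAR-SUGP1 list 5, of 50 with a PSMA to PSMG symbol. These were 8.0% (2.22 to 19.2) with GPATCH8-ADAR, against 2.48% of all protein-coding genes, and 10% (3.33 to 21.8) with ADAR-SUGP1, against 4.96%. All listed subunits belong to the regulatory particle that recognises and unfolds substrates, and no PSMA or PSMB gene of the catalytic core was listed. With so few listed genes, a difference between the regulatory particle and the core cannot be read from this, and none was tested. PSMD7, a structural subunit of the lid, had 1 intronic site with GPATCH8-ADAR on ENST00000219313.4. With ADAR-SUGP1, PSMD7 had 2 intronic sites on that transcript and 1 coding site on ENST00000568717.1, which also had a stop-codon site. PSMD4, a ubiquitin receptor of the regulatory particle, had 1 intronic site with each fusion on ENST00000368884.3, and with ADAR-SUGP1 a stop-codon site on ENST00000437736.1. PSMD14, the deubiquitinase of the lid, and PSMC6, an ATPase of the base, had 1 intronic site each with GPATCH8-ADAR. PSMD11, a lid subunit, and PSMG1, an assembly chaperone of the core, had 1 intronic site each with ADAR-SUGP1. PSMC3IP, with 1 intronic site with ADAR-SUGP1, matches by symbol alone, since it is a cofactor of meiotic recombination.

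**Figure D2:**
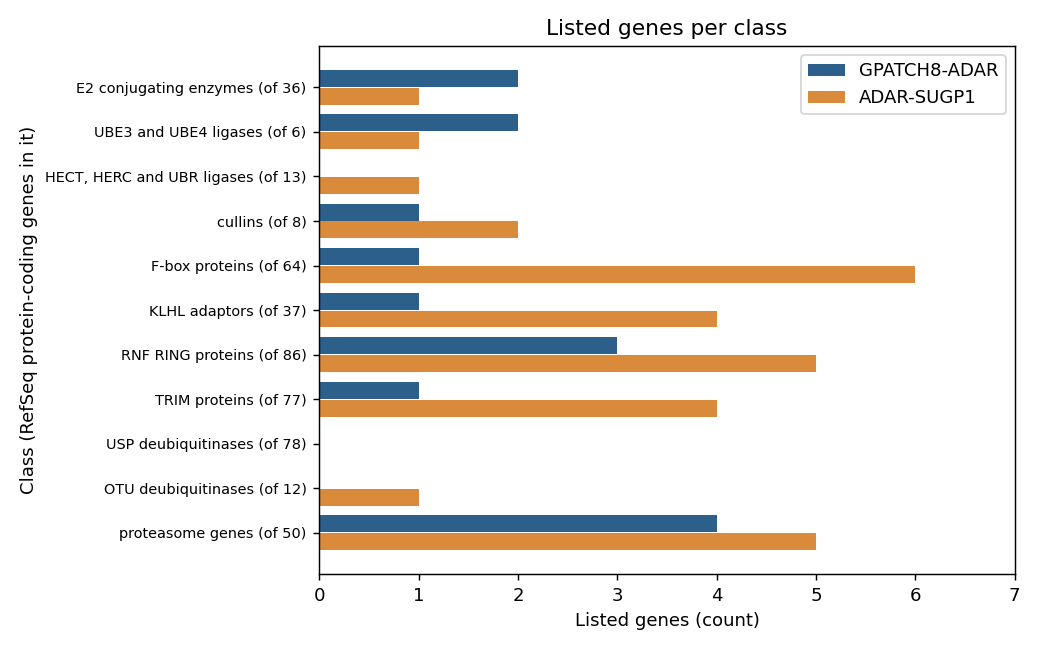
Number of listed genes (horizontal axis, count) in each of the 11 symbol classes (vertical axis, with the number of RefSeq protein-coding genes of the class in brackets), as a bar for GPATCH8-ADAR above one for ADAR-SUGP1. F-box proteins had 1 and 6 listed genes, proteasome genes 4 and 5, and USP deubiquitinases 0 and 0.

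Member genes had few sites each. With GPATCH8-ADAR, 18 sites lay in 15 genes, a mean of 1.20 ± 0.561 (SD over genes) and a median of 1.00, against a mean of 1.48 ± 1.02 and a median of 1.00 in the 483 other protein-coding genes. With ADAR-SUGP1, 40 sites lay in 30 genes, a mean of 1.33 ± 0.711 and a median of 1.00, against 1.26 ± 0.743 and 1.00 in the 965 other protein-coding genes. The means were not tested against each other. At least 2 sites were present in 2 of the 15 members with GPATCH8-ADAR (CUL7 and RNF138), where 29.5% of all protein-coding genes on that list had as many. With ADAR-SUGP1, 8 of the 30 members had at least 2 sites (CUL9, KLHL42, OTUD4, PSMD7, RNF31, TRIM27, UBE2O and UBE4A), where 19.9% of all protein-coding genes on that list had as many. The counts of OTUD4 and PSMD7 are sums over 2 transcripts each. Without positions, it is not known whether the sites of different transcripts are distinct. No member reached the highest count of other genes, 8 on the GPATCH8-ADAR list and 7 on the ADAR-SUGP1 list. The other genes far outnumber the members, so these maxima are not a like comparison.

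All 8 genes on both lists had exactly 1 site with GPATCH8-ADAR. Each also had at least 1 with ADAR-SUGP1, so a differing count could only be larger with ADAR-SUGP1. KLHL42, PSMD7 and UBE2O had 3 with ADAR-SUGP1, a difference of -2 (GPATCH8-ADAR minus ADAR-SUGP1). TRIM27 and UBE4A had 2 with ADAR-SUGP1, a difference of -1. FBXL12, PSMD4 and RNF149 had 1 site with each fusion. In sum these genes held 8 GPATCH8-ADAR sites and 16 ADAR-SUGP1 sites. ADAR-SUGP1 thus had more sites in 5 of 8 shared members, where it did so in 22.1% of all protein-coding genes on both lists. Among the 137 other protein-coding genes on both lists, the GPATCH8-ADAR count was the larger in 36 and the ADAR-SUGP1 count in 27, and 74 were tied. These 137 genes held 220 GPATCH8-ADAR sites, so some had more than 1, and the 22.1% is not a like comparison for the members. Of the 8 members, 7 had their main region in common, FBXL12 being the exception, and 7 had at least 1 identical transcript on both lists, TRIM27 being the exception. Whether the sites themselves coincide cannot be seen, because the tables hold no positions.

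Introns held most member sites with both fusions. With GPATCH8-ADAR, 15 of 18 sites were intronic (83.3%, 58.6 to 96.4), against 77.0% (73.8 to 80.1) of sites in other protein-coding genes. With ADAR-SUGP1, 26 of 40 were intronic (65.0%, 48.3 to 79.4), against 66.7% (63.9 to 69.3) in other protein-coding genes. The intronic share was 18.3 percentage points larger with GPATCH8-ADAR among members and 10.4 points larger among other protein-coding genes. At least 1 intronic site was present in 13 of 15 members with GPATCH8-ADAR, where 74.3% of all protein-coding genes on the list had one, and in 19 of 30 members with ADAR-SUGP1, where 63.1% had one.

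Coding sites made up a larger share of member sites than of other sites with ADAR-SUGP1. They were 10 of 40 sites (25.0%, 12.7 to 41.2), against 131 of 1212 (10.8%, 9.12 to 12.7) in other protein-coding genes, both bounds that face each other rounding to 12.7. The difference was not tested. The 10 sites lay in 9 genes, namely CUL9, FBXO18, FBXO27, FBXW9, KLHL8, PSMD7, RNF31, TRIM32 and UBR4, where 12.9% of all protein-coding genes on that list had a coding site. Of these 9 genes, 8 belong to ligase or ligase-adaptor families, as do 23 of all 30 members on that list, and PSMD7 is a proteasome subunit. With GPATCH8-ADAR, the coding sites were the 2 of CUL7, which made 11.1% of 18 sites (1.38 to 34.7), against 2.10% (1.18 to 3.44) in other protein-coding genes. CUL7 was the 1 member of 15 with a coding site, where 3.01% of all protein-coding genes on the list had one. Leaving out CUL7 and CUL9, which was decided after their values were seen, the coding share was 0.00% with GPATCH8-ADAR and 21.1% with ADAR-SUGP1. No member had coding sites with both fusions, which rests on CUL7 alone, a gene absent from the ADAR-SUGP1 list. Of the 17 further ubiquitin pathway genes on the ADAR-SUGP1 list, described below, ZNRF3 alone had a coding site, a single one.

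The 3′ UTR held 1 of 18 member sites with GPATCH8-ADAR (5.56%, 0.141 to 27.3), against 19.6% (16.8 to 22.7) in other protein-coding genes. It held 3 of 40 with ADAR-SUGP1 (7.50%, 1.57 to 20.4), against 17.2% (15.1 to 19.4). With each fusion the intervals of members and other genes overlap, and the difference was not tested. The sites were those of RNF149 with both fusions and of FBXL12 and OTUD4 with ADAR-SUGP1. One member of 15 and 3 of 30 had a 3′ UTR site, where 20.3% of all protein-coding genes had one with GPATCH8-ADAR and 17.8% with ADAR-SUGP1. The 5′ UTR held 0 of 18 member sites with GPATCH8-ADAR (0.00%, up to 18.5), against 1.26% in other protein-coding genes, and 1 of 40 with ADAR-SUGP1 (2.50%, 0.0633 to 13.2), against 5.36%. Genes with a 5′ UTR site were 1.81% of all protein-coding genes on the GPATCH8-ADAR list and 5.73% of those on the ADAR-SUGP1 list.

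**Figure D3:**
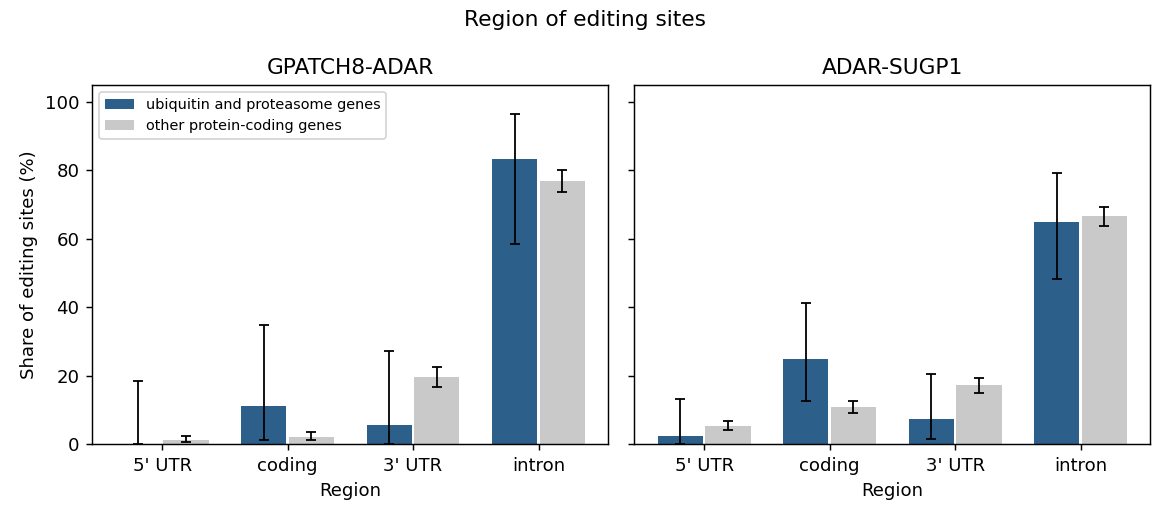
Share of editing sites (vertical axis, percent) in the 5′ UTR, coding sequence, 3′ UTR and introns (horizontal axis), with GPATCH8-ADAR in the left panel and ADAR-SUGP1 in the right; dark bars are ubiquitin and proteasome genes, pale bars other protein-coding genes, and error bars exact binomial 95% intervals. The coding bar for ADAR-SUGP1 stands at 25.0% in members and 10.8% in other genes, while the intronic bars stand at 65.0% and 66.7%.

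A stop-codon site, a class kept outside the transcript-body total, was present in 1 of 17 member transcripts with GPATCH8-ADAR (5.88%, 0.149 to 28.7), against 3.61% of other protein-coding transcripts. With ADAR-SUGP1 it was present in 7 of 39 (17.9%, 7.54 to 33.5), against 11.8% of the others. By gene, 1 of 15 members had one with GPATCH8-ADAR, where 4.02% of all protein-coding genes on the list did, and 7 of 30 with ADAR-SUGP1, where 14.4% did. The 7 genes were FBXL12, FBXW9, OTUD4, PSMD4, PSMD7, RNF31 and TRIM32. In FBXW9, PSMD7 and TRIM32 the transcript with the stop-codon site also had 1 coding site, and in OTUD4 it had 1 site in the 3′ UTR. In FBXL12, PSMD4 and RNF31 it had no site in its body, as was the case for 84 of 139 such transcripts in other protein-coding genes. Of those 139 transcripts with ADAR-SUGP1, 22 had a coding site and 25 a site in the 3′ UTR. How far the stop-codon region extends is not stated, so a site counted there need not lie in the stop codon itself. Without positions, it is not known whether such a site is distinct from the coding or 3′ UTR site of its transcript. Several transcripts were listed for 2 of 15 members with GPATCH8-ADAR, where this held for 8.63% of all protein-coding genes. They were listed for 8 of 30 members with ADAR-SUGP1, where this held for 19.6%.

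Ubiquitin pathway genes outside these symbol families were also listed, mostly with single sites. Of 246 such genes in 8 lists, 18 were on the GPATCH8-ADAR list (7.32%), where 2.48% of all protein-coding genes were listed. There were 17 on the ADAR-SUGP1 list (6.91%), where 4.96% of all protein-coding genes were listed, and 6 were on both. The lists were chosen by hand with earlier results known and these shares were not tested, so the percentages below are a description, to be read beside those 2.48% and 4.96%. E1 enzymes, which activate ubiquitin or its relatives, numbered 2 of 10 (20%) with GPATCH8-ADAR, NAE1 of the NEDD8 pathway with 2 intronic sites and UBA2 of the SUMO pathway with 1, and 0 with ADAR-SUGP1. Cullin-RING partners and COP9 signalosome genes, 57 in all, numbered 2 (3.51%) with GPATCH8-ADAR (COPS3 and CRBN, the target of thalidomide, 1 intronic site each) and also 2 (3.51%) with ADAR-SUGP1 (CAND2 with 1 intronic site, KCTD13 with 1 promoter site).

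The anaphase-promoting complex, a large RING ligase of mitosis, had 3 listed genes of 16 with GPATCH8-ADAR (18.8%) and 2 with ADAR-SUGP1 (12.5%). Its subunit ANAPC5 had 2 intronic sites with GPATCH8-ADAR and a single one with ADAR-SUGP1, ANAPC7 had 1 with each, and ANAPC16 had 1 site in its 3′ UTR with GPATCH8-ADAR. Other RING and U-box ligases on the GPATCH8-ADAR list numbered 6 and those on the ADAR-SUGP1 list 6, of 80 (7.50% each). ARIH2 and RMND5B had 1 intronic site with each fusion. MDM4, a p53 inhibitor, had 1 site in its 3′ UTR with GPATCH8-ADAR, where MKRN1 and MYCBP2 had 1 intronic site each. DZIP3 and SYVN1, a ligase of the endoplasmic reticulum, had 1 intronic site each with ADAR-SUGP1, as did TRAIP. NOSIP had 1 site in its 5′ UTR with GPATCH8-ADAR, and ZNRF3, a ligase for Wnt receptors, had 1 coding site with ADAR-SUGP1. They held the 5′ UTR site and the coding site of these further lists. None of the 16 other HECT ligases was listed with either fusion.

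Deubiquitinases and deSUMOylating enzymes outside the USP and OTU families on the GPATCH8-ADAR list numbered 3 and those on the ADAR-SUGP1 list 2, of 26 (11.5% and 7.69%). UCHL1, a neuronal ubiquitin hydrolase, had 1 intronic site with each fusion, and a stop-codon site with ADAR-SUGP1. SENP2 had 1 site in its 3′ UTR and SENP5 had 1 intronic site with GPATCH8-ADAR, and PAN2, an inactive relative of the USP enzymes that trims poly(A) tails, had 2 intronic sites with ADAR-SUGP1. Genes of the p97 segregase and of ubiquitin receptors on the GPATCH8-ADAR list numbered 1 and those on the ADAR-SUGP1 list 4, of 29 (3.45% and 13.8%). NPLOC4, a p97 cofactor, had 1 intronic site with GPATCH8-ADAR and 1 site in the 3′ UTR with ADAR-SUGP1. The autophagy receptor SQSTM1 had 2 intronic sites with ADAR-SUGP1, and DDI2 and the p97 cofactor UFD1L had 1 each. SQSTM1 and UFD1L also had a stop-codon site with ADAR-SUGP1.

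Strand was not stated for the counting of sites, so a site of an overlapping gene could have been counted for a member. By RefSeq gene intervals (GRCh38.p14, used for neighbours only), 22 of the 37 members overlapped another annotated gene and 7 overlapped another protein-coding gene. These were FBXO18 with ANKRD16, KLHL23 with PHOSPHO2-KLHL23, KLHL42 with MANSC4, PSMC3IP with MLX, RNF123 with AMIGO3 and GMPPB, RNF34 with KDM2B, and TRIM32 with ASTN2. In none of the 37 was an overlapping gene on the same fusion's list.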

How the data were processed

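Editing sites were taken from 2 deposited tables, 1 per fusion, made from 9 libraries in 5 groups. The authors deposited whole-number counts of editing sites per Ensembl transcript and region, per the file headers. Per the series' design text, endogenous and control-fusion editing was subtracted and events in both replicates were kept. Trimmomatic, STAR and hg19 are named in the submitters' processing notes; not given in the sources used here are versions, site caller, thresholds, annotation and strand use. This processing favours transcripts covered well in both libraries. Per the labels' protocols, libraries had about 60 to 80 M paired reads of 100 bp; depth per site is unknown. Whether replicates were separate cultures is not stated.

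Protein-coding rows (544 and 1216) were kept, 572 blank rows skipped, and sites summed over the transcripts of a gene with pandas 2.3.3 in Python 3.11.15. The promoter and stop-codon counts lie outside the transcript-body total, and the extent of these regions is not stated. Intervals came from SciPy 1.17.1. Family sizes used RefSeq names of GRCh38.p14, by which 36 members matched as symbols and FBXO18 as a synonym. Members, gene lists and alternatives were chosen with earlier results of these data known. Named genes were members with at least 2 sites, on both lists, or with 5′ UTR, coding, stop-codon or promoter sites, the others by class, and up to 4 genes per further list and fusion; FBXW2, FBXW5 and other members with 1 intronic site were named to account for every member. NOSIP, TRAIP and ZNRF3 were named after their values were seen. Symbols of the further lists that RefSeq gives to 1 gene were counted once (246 genes from 249 symbols). Results for 2 genes of the further lists are not reported here. Sums and intervals were checked on simulated data. Alternatives were a minimum of body sites, every transcript type, the transcript with the most sites, genes as the unit, and smaller sets of symbols.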

Additional observations from a re-analysis of the deposited data

How the results depend on the processing

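Of 48 recomputed values, 45 stayed within 1.5 times the original count or within the original 95% interval. The exceptions were the number of members when at least 2 sites in the transcript body were required, which was 2 with GPATCH8-ADAR and 8 with ADAR-SUGP1, and the coding share with GPATCH8-ADAR without CUL7 and CUL9, which was 0.00%, since CUL7 held both coding sites. Several of the 45 could not have moved, so this count is not a measure of robustness. Members had 0 rows of other transcript types, so the 4 values for every transcript type were fixed. PSMC3IP, the symbol left out as a match by name alone, was not on the GPATCH8-ADAR list, whose values therefore stayed identical. No GPATCH8-ADAR member had body sites on several transcripts, so taking the transcript with the most sites changed nothing there. With 1 body site required, 15 and 29 members were listed, and 8 were shared, or 7 by identical transcript. No paired analysis was possible because each deposited column combines both replicates, and for the same reason no replicate could be left out. The small counts leave wide intervals, and fusion and run cannot be told apart.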
